A study of Mus musculus with 6 samples.

Results

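The enzymes that build haem were followed in mouse fetal liver cells that were made to express Arid3a, which encodes an AT-rich DNA-binding protein. The set held 8 genes chosen by name in pathway order (Alas1, Alas2, Alad, Uros, Urod, Cpox, Ppox and Fech), out of 53801 genes in the count table. It does not hold every enzyme of the pathway. All 8 were found by their Ensembl identifiers, and 7 had enough counts to be tested. The cells were taken at E12.5 to E13.5 from mice of a B6J.129 strain that carries Cas9 and EGFP at the Rosa26 locus, driven by the CAG promoter. Every library, controls included, came from cells with a guide against Gata1 (sgGata1; sample titles say Gata1s, a name for a shortened GATA1) and a miR-125b transgene, and every culture received doxycycline at 1 μg/mL for 48 h. The 3 libraries of one group carried a doxycycline-inducible Arid3a-FLAG construct and the 3 libraries of the other an inducible LUC construct (the controls). Libraries are called LUC 1 to 3 and Arid3a-FLAG 1 to 3 by their replicate number. The labels name neither the promoters of the constructs nor whether replicates were separate animals or transductions, so p-values measure only the spread between these libraries, which may be technical.

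Haem is the iron-bearing ring of haemoglobin, cytochromes and catalase. Its synthesis begins in the mitochondrion, where an aminolevulinate synthase joins glycine to succinyl-CoA, runs through cytosolic steps, and returns to the mitochondrion for the last steps, which end when ferrochelatase inserts iron. The first step has a pair of isozymes. ALAS1 is made in nearly all cells and is held down by haem, whereas ALAS2, encoded on the X chromosome, is the form of developing red cells, a known target of GATA1 and, through an element in its mRNA, under translational control by iron. Red cells and megakaryocytes, the makers of platelets, arise from shared progenitors.

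Totals ran from 15728150 to 18249053 gene counts per library. The construct entry of the table had 0 counts in each control and 3348, 3044 and 2758 counts in Arid3a-FLAG 1, 2 and 3, as labelled. The endogenous Arid3a gene stood at 13.1 ± 3.47 CPM (counts scaled to library size; SD, n = 3) in the controls and 12.999 ± 0.519 CPM under Arid3a-FLAG. LUC 2 was set off from the other 5 libraries along the second principal component (24.0% of the variance in log2 CPM), so the enzymes' values are also given without it. Of the marker lists, the megakaryocyte genes summed to between 7031 and 8692 CPM in the controls and to 7305 to 7881 CPM under Arid3a-FLAG, led by Pf4, Itga2b and Itgb3. Mast cell and basophil genes, led by Gata2 (which progenitors also use), Fcer1a and Cpa3, summed to between 3022 and 3578 CPM in the controls and to 2153 to 2927 CPM under Arid3a-FLAG. Erythroid genes, led by Car2, Sptb and Tfrc, summed to between 1157 and 1272 CPM in the controls and to 1374 to 1579 CPM under Arid3a-FLAG. The band 3 gene Slc4a1, a defining gene of maturing red cells, had 0 counts in all 6 libraries. It was the only gene of the erythroid list at 0 throughout. Of the globin genes in that list, Hbb-bt stood at 89.3 ± 15.6 CPM in the controls and 106.6 ± 13.7 CPM under Arid3a-FLAG. Hba-a1 stood at 31.3 ± 8.31 CPM in the controls and 118.8 ± 22.4 CPM under Arid3a-FLAG. Slc4a1, Hbb-bt and Hba-a1 lie outside the naming rule given below. Hepatocyte genes summed to between 16.3 and 27.3 CPM, nearly all of it Afp, with Alb at or near 0 and 6 of 12 genes at 0 throughout. Monocyte and macrophage genes, led by Lyz2, Csf1r and Adgre1, summed to 19.8 to 23.1 CPM in the controls and 27.6 to 35.7 CPM under Arid3a-FLAG. Lymphoid genes, led by Nkg7, Il7r and Lef1, summed to 29.6 to 41.3 CPM in the controls and 6.73 to 7.78 CPM under Arid3a-FLAG. In these last 2 lists, as in the mast cell and basophil and the erythroid lists, the sums of the groups lay apart. In the megakaryocyte and hepatocyte lists they overlapped. Among single tested genes, 33.1% lay apart in either direction. These are bulk libraries, in which fewer cells of a type and less RNA per cell cannot be told apart.

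The isozymes of the first step were at very different levels, so the stretch before each start site is shown for both. The sequences are the 250 bases upstream of the RefSeq start on GRCm38.p6, the build also called mm10, read along the strand of the gene: Alas1 on chr9:106247955-106248204 (minus strand, the more upstream of its 2 listed starts) and Alas2 on chrX:150547167-150547416 (plus strand). GENCODE M21, which gave the gene positions, places the Alas1 start further upstream, at 106248654, so the Alas1 window lies inside the gene as annotated there. The Alas2 window reaches past the GENCODE start at 150547375. Neither window is thus wholly sequence before the gene on that annotation. Capitals mark GATAA, the core of the site bound by GATA factors, on either strand (TTATC when it lies on the other strand).
Alas1: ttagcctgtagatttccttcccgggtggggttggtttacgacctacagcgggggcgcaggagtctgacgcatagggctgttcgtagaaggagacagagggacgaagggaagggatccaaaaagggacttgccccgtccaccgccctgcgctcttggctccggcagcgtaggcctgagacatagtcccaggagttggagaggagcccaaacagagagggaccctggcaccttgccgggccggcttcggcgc
Alas2: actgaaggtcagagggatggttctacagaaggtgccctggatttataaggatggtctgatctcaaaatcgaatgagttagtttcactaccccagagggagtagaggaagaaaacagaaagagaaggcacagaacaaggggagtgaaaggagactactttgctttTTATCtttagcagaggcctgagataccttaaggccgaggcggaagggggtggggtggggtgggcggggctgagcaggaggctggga
The Alas2 window held 1 GATAA, on the opposite strand, with its outer end 86 bases before the start, and the Alas1 window held 0. In all, 22.6% of 32851 windows of this length held GATAA, so a single match is common. CCNCNCCC, letters like those bound by KLF factors, was found 4 times in the Alas2 window, overlapping matches included, and 1 time in the Alas1 window shown, against 45.9% of windows with at least 1 match. The second start of Alas1 had 2 matches, and the starts of Alad had 2 and 4, as many as Alas2. ATTAAA, the core letters of the motif known for ARID3A, was in neither (12.7% of windows hold it). Of the other enzymes with a window, Cpox and the second start of Uros had 1 GATAA each, the upstream start of Alad had 1 ATTAAA, and Urod and Ppox had no match to any of the 3 motifs. RefSeq windows were matched for 7 of the 8 genes. Fech is named only.

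Alas1 supplied nearly all synthase transcripts. Alas1 (ENSMUSG00000032786, chromosome 9, 106233455 to 106248654, minus strand, mm10) had 349, 310 and 289 counts in LUC 1, 2 and 3 and 258, 276 and 266 counts in the Arid3a-FLAG libraries. Alas2 (ENSMUSG00000025270, chromosome X, 150547375 to 150570638, plus strand) had 3, 5 and 8 counts with LUC and 2, 7 and 6 with Arid3a-FLAG. No library of either group had more than 8 Alas2 counts, and the groups overlapped fully. Alas2 made up 0.852% of the synthase counts in LUC 1 (95% exact Clopper-Pearson interval 0.176% to 2.47%), 1.59% in library 2 (0.517% to 3.67%) and 2.69% in library 3 (1.17% to 5.24%). With Arid3a-FLAG the shares were 0.769% (0.0933% to 2.75%), 2.47% (1.00% to 5.03%) and 2.21% (0.814% to 4.74%). These intervals cover counting error only. Over all 6 libraries there were 1748 Alas1 counts and 31 Alas2 counts. Per kilobase of exon, Alas1 was 21.9-fold above Alas2, and 33.8-fold when each gene was given the length of its principal transcript.

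No shift in the balance of the isozymes was detectable. The log2 ratio of Alas2 to Alas1 per exonic kilobase was -4.64 ± 0.844 (SD, n = 3) with LUC and -4.57 ± 0.942 with Arid3a-FLAG, a difference of 0.07 (exact two-sided permutation test, p = 1; 3 against 3 libraries cannot go below 0.1). The sign of this difference turned without LUC 1 (-0.36), Arid3a-FLAG 2 (-0.24) or Arid3a-FLAG 3 (-0.16). Alas2 itself was below the filter on low counts, which asks for about 0.599 CPM in 3 libraries, and was not among the tested genes. With no filter its log2 fold change was -0.02 (SE 0.74, 95% interval -1.47 to 1.42, adjusted p = 0.991), an interval that includes the spread between libraries. Its pooled counts, 16 with LUC and 15 with Arid3a-FLAG, gave a ratio of 0.973 (exact Poisson interval 0.448 to 2.10, counting error only). Changes inside the wider, fitted interval were not detectable at this depth. Alas2 shares 311 exonic bases with Apex2 on the opposite strand, and whether counting used the strand is not stated, so even these few counts are uncertain.

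Alas1, the housekeeping synthase, stood at 20.2, 20.3 and 15.6 CPM in the controls, against 16.02, 16.02 and 16.7 CPM under Arid3a-FLAG. LUC 1 and 2 were the highest of the 6 and LUC 3 the lowest, so the groups overlapped. The log2 fold change was -0.20 (SE 0.13, 95% interval -0.49 to 0.10, edgeR adjusted p = 0.375), and -0.12 without LUC 2. A fall of more than about 0.49 or a rise of more than 0.10 on the log2 scale lay outside the interval. Alas1 shares 465 exonic bases with the antisense gene 4930500F10Rik. The genes whose profile over the 6 libraries was most like that of Alas1, among 9617 compared, were Bola3, Glrx2, Mettl17, Alg3 and Nprl2, with root mean square differences in centred log2 CPM from 0.0348 to 0.0463. Bola3, the nearest, also stands in the iron-sulphur cluster list described further on, and none of the 5 passed the test.

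**Figure D1:**
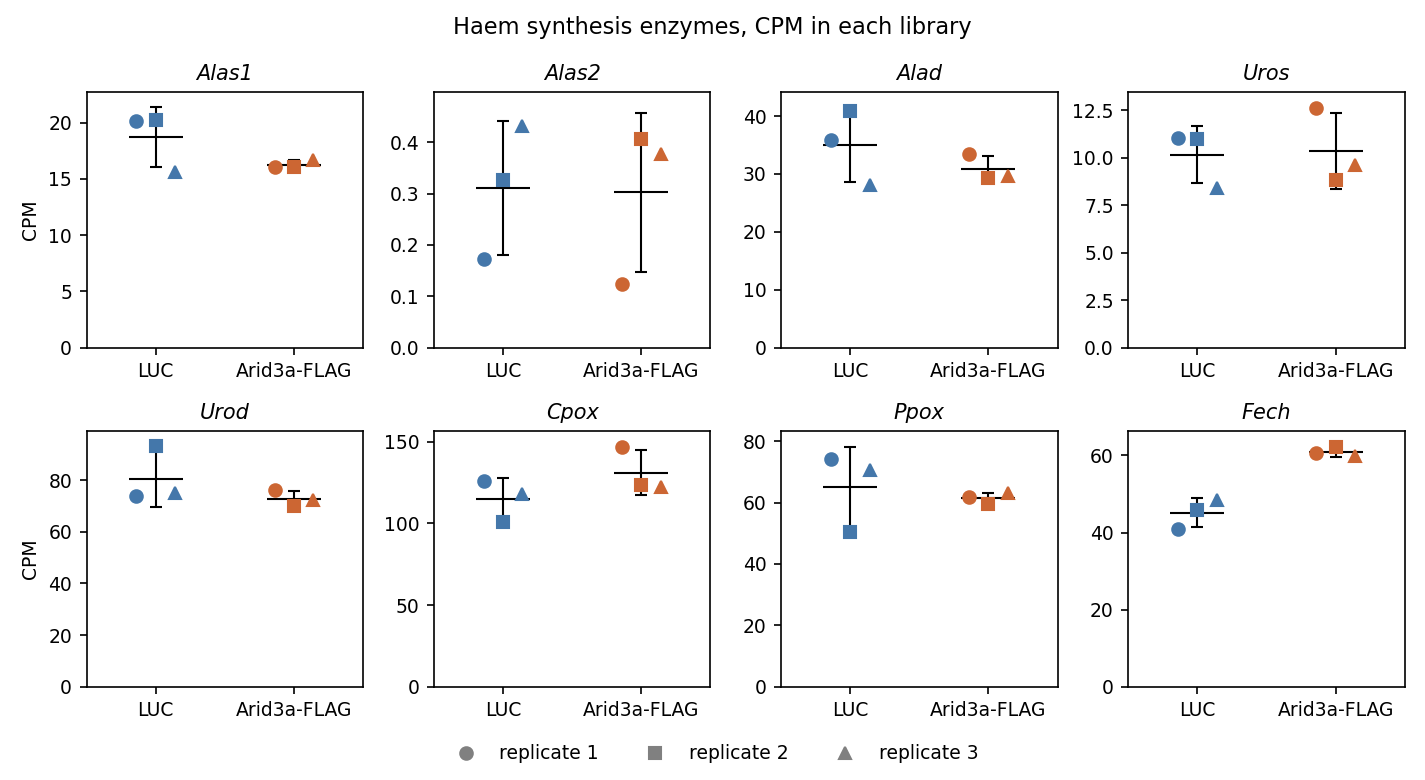
CPM of the 8 haem synthesis enzymes in each library, with 1 panel per gene and a linear axis from 0; circles, squares and triangles are replicates 1, 2 and 3, and black bars are the mean ± SD over 3 libraries. Only the Fech panel shows all Arid3a-FLAG values (59.8 to 62.1 CPM) above all LUC values (41.0 to 48.5 CPM), and the Alas2 panel runs below 0.45 CPM.

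In the cytosolic steps no enzyme changed past the threshold. Alad (chromosome 4, 62509169 to 62519918), which joins pairs of aminolevulinate molecules into porphobilinogen, stood at 35.9, 40.9 and 28.1 CPM in the controls, against 33.5, 29.3 and 29.7 CPM under Arid3a-FLAG. LUC 2 was its highest and LUC 3 its lowest value, and the log2 fold change was -0.18 (95% interval -0.49 to 0.13, adjusted p = 0.443). Without LUC 2 the value for Alad was -0.04. Uros (chromosome 7, 133686243 to 133710072), which closes the ring, had 11.04, 10.99 and 8.42 CPM in the controls, against 12.6, 8.83 and 9.61 CPM under Arid3a-FLAG. LUC 3 was its lowest and Arid3a-FLAG 1 its highest library, and its log2 fold change of 0.03 had the widest interval (-0.37 to 0.43, adjusted p = 0.937). The direction for Uros turned without LUC 3 (-0.06) or Arid3a-FLAG 1 (-0.14), and without LUC 2 it was 0.10.

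Urod (chromosome 4, 116989965 to 116994413), which trims the acetate side chains of uroporphyrinogen, had 73.7, 93.2 and 74.9 CPM in the controls, against 76.1, 70.1 and 72.2 CPM under Arid3a-FLAG. LUC 2 alone lay above the rest, and the other 5 libraries spanned 70.1 to 76.1 CPM. The log2 fold change was -0.15 (95% interval -0.38 to 0.09, adjusted p = 0.418) and was -0.02 without LUC 2.

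Of the mitochondrial enzymes, Fech rose, Cpox leaned higher without passing, and the value of Ppox turned on which control was included. Cpox (chromosome 16, 58670292 to 58717636), which makes protoporphyrinogen, had 125.8, 100.6 and 117.8 CPM in the controls, against 146.8, 123.7 and 122.5 CPM under Arid3a-FLAG. LUC 1 lay above Arid3a-FLAG 2 and 3, and LUC 2 was the lowest. The log2 fold change of Cpox was 0.19 (95% interval -0.05 to 0.44, adjusted p = 0.305) and stayed between 0.10 and 0.28 with 1 library left out (0.12 without LUC 2), never past the threshold. Cpox shares 204 exonic bases with Gpr15 on the opposite strand.

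Ppox (chromosome 1, 171275990 to 171281186), which oxidises protoporphyrinogen to protoporphyrin, had 74.4, 50.35 and 70.55 CPM in the controls, against 61.8, 59.7 and 63.0 CPM under Arid3a-FLAG. The Arid3a-FLAG libraries lay close together, between LUC 2 below and LUC 1 and 3 above. The log2 fold change was -0.08 (95% interval -0.38 to 0.21, adjusted p = 0.737). Without LUC 2 it was -0.22 and just past the threshold (adjusted p = 0.0494), whereas without LUC 1 or 3 it was 0.04 or 0.00399. Ppox shares 791 of its 4515 exonic bases with B4galt3 on the opposite strand, which leaves its count uncertain.

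Fech (ENSMUSG00000024588, chromosome 18, 64452914 to 64490251, minus strand) encodes ferrochelatase, which places iron in protoporphyrin. It had 710, 701 and 898 counts with LUC and 977, 1070 and 953 with Arid3a-FLAG, or 41.0, 45.8 and 48.5 CPM against 60.7, 62.1 and 59.8 CPM. All 3 Arid3a-FLAG libraries lay above all 3 LUC libraries, a separation in this direction shown by 16.6% of tested genes (33.1% in either direction). The rise was 1.35-fold, or 0.43 on the log2 scale (0.46 without LUC 2), with an SE of 0.09, a 95% interval of 0.22 to 0.64 and an edgeR adjusted p of 0.0237. The size hardly depended on any single library (0.39 to 0.52 with 1 left out), but the call did. It was lost without LUC 1 (adjusted p = 0.0717), Arid3a-FLAG 1 (0.112), Arid3a-FLAG 2 (0.126) or Arid3a-FLAG 3 (0.0711), and kept without LUC 2 (0.00541) or LUC 3.

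**Figure D2:**
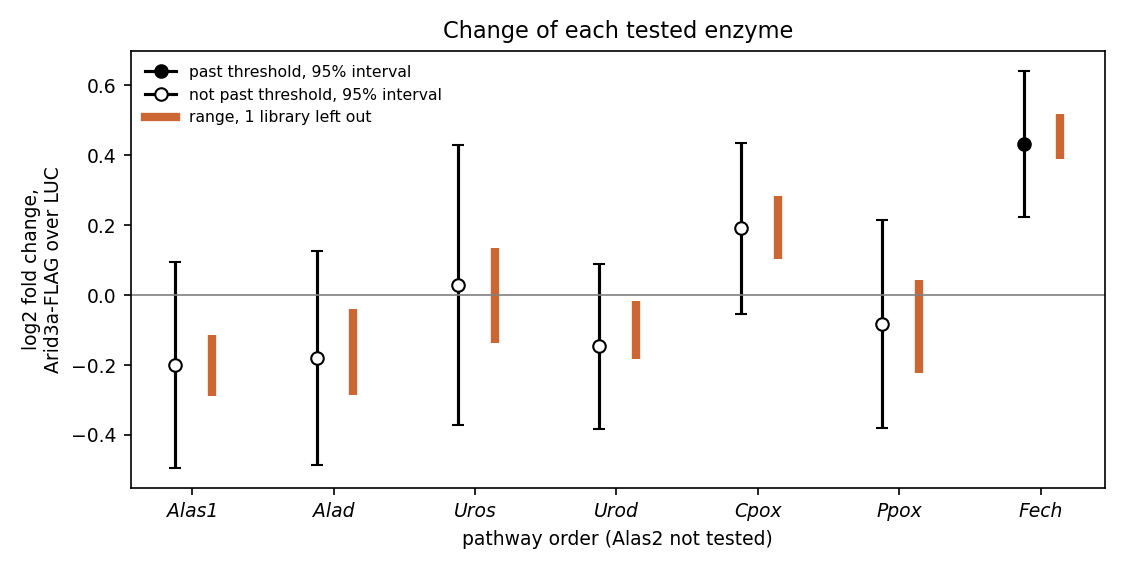
Log2 fold change of Arid3a-FLAG over LUC for the 7 tested enzymes in pathway order, as points with 95% intervals (filled where the adjusted p passed 0.05), with thick bars for the range over the 6 fits that left out 1 library. Fech at 0.43 is the 1 filled point, and the bars of Uros and Ppox cross 0.

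Over the 7 tested enzymes 1 rose, 0 fell and 6 did not pass, against 7.29% of 13631 tested genes called in either direction, 3.43% called higher and 3.87% called lower. DESeq2 and limma-voom gave the same counts, and 1 enzyme, Fech, had an unadjusted p under 0.05, as did 25.6% of all tested genes. Without LUC 2, Fech rose and Ppox fell, beside 1191 genes that rose and 1095 that fell over the whole table. The median log2 fold change of the 7 was -0.08, beside -0.03 over all tested genes. Summed over the 8 enzymes, levels ran from 362.5 to 382.2 CPM in the controls and from 370.2 to 407.6 CPM under Arid3a-FLAG, ranges that overlapped. Erythroid markers moved with Fech: of 20 tested, 7 rose and 2 fell (median 0.34), with Sptb, the erythroid beta spectrin, going from 124.8 ± 19.2 to 182.2 ± 17.9 CPM. In the megakaryocyte list 4 of 15 rose and 1 fell (median 0.35), while 3 of 10 mast cell and basophil genes and 3 of 3 lymphoid genes tested fell. Lef1, of the lymphoid genes, reached the cutoff of the low-count filter in all 3 libraries only with LUC (0.654 to 0.982 CPM). Hba-a2 and Hba-x, of the erythroid genes that rose, did so only with Arid3a-FLAG. That these genes were tested at all therefore depended on the group where they were high. Of 5 monocyte and macrophage genes tested 1 rose, Csf1r, the receptor of a macrophage growth factor, from 2.62 ± 0.689 to 7.89 ± 0.651 CPM (1.59 on the log2 scale, adjusted p = 0.00296). Csf1r shares 873 exonic bases with Hmgxb3 on the opposite strand, which leaves its count uncertain. The part of any lineage in the rise of Fech was not tested.

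Levels of different enzymes were compared per kilobase, since long transcripts collect more counts. With the length of all annotated exons, Urod was highest with LUC at 31.1 ± 4.21 CPM per kilobase, apart from the next. Alad (18.7 ± 3.43), Cpox (17.2 ± 1.93) and Ppox (14.4 ± 2.86) followed with overlapping neighbours, then, after a gap, Fech (3.26 ± 0.273), Alas1 (3.03 ± 0.432) and Uros (2.84 ± 0.418), whose neighbours overlapped too, and Alas2 last at 0.129 ± 0.0541. With Arid3a-FLAG, Cpox (19.7 ± 2.06) lay above Alad (16.5 ± 1.25) and Fech (4.399 ± 0.0840) above Uros (2.89 ± 0.558) with no overlap, while Uros and Alas1 (2.63 ± 0.0634) overlapped. The choice of length matters for the middle of this order. Fech has 13838 exonic bases in all but 6571 in its principal transcript, and Ppox 4515 against 1821. With principal transcripts, an alternative added once the data had been seen, the LUC order was Urod, Cpox, Ppox, Alad, Fech, Uros, Alas1 and Alas2, and that under Arid3a-FLAG was the same. On this length, under Arid3a-FLAG, Urod (48.9 ± 2.02) and Cpox (42.3 ± 4.42) overlapped, while Uros (5.87 ± 1.13) and Alas1 (4.78 ± 0.115) did not. On either length, Alas1, Uros and Fech formed the low tier of the tested enzymes in both groups, and Alas2 was far below it.

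**Figure D3:**
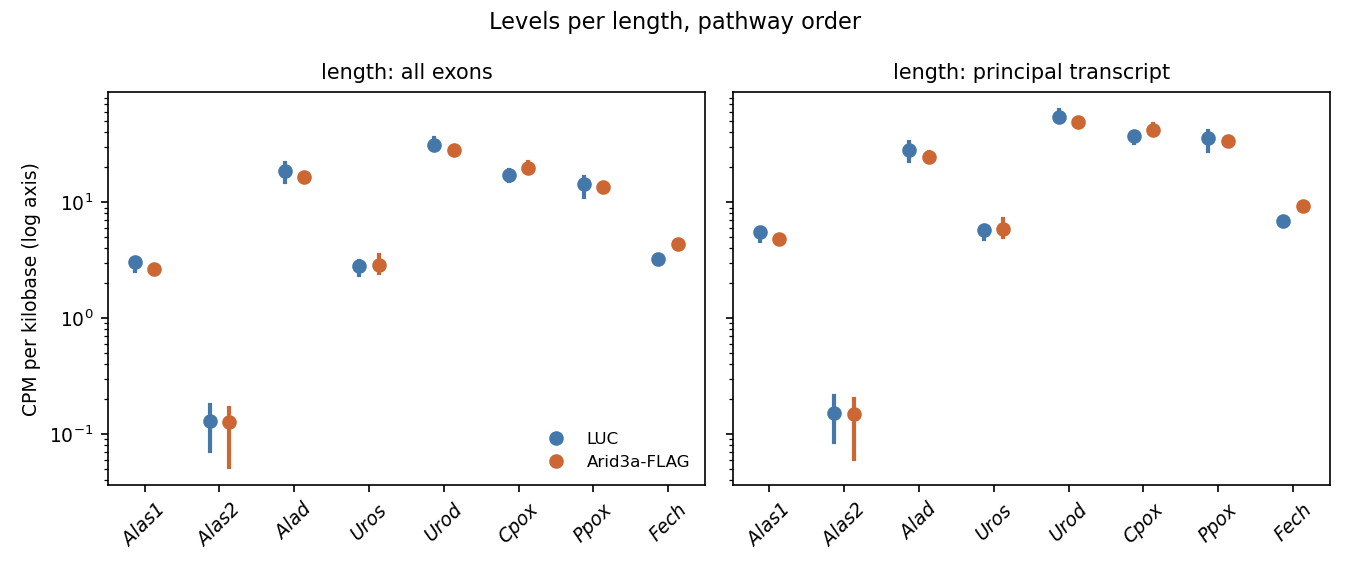
Level of each enzyme in CPM per kilobase on a log axis, in pathway order, by the length of all exons (left) and of the principal transcript (right); points are means of 3 libraries and lines run from the lowest to the highest library. Urod leads with LUC at 31.1 CPM per kilobase of exon, and Alas2 lies near 0.13 in both groups.

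The counts of the lists around the enzymes stand beside the shares over all tested genes, of which 3.43% rose, 3.87% fell and 25.6% had an unadjusted p under 0.05. Of 16 tested mitochondrial carriers and partners of haem synthesis, 0 rose, 2 fell and 14 did not pass (median -0.14; 4 had an unadjusted p under 0.05). Pgrmc1, a haem-binding membrane protein that associates with ferrochelatase, went from 113.4, 142.2 and 128.3 to 100.7, 98.7 and 90.0 CPM, a fall of 0.41 on the log2 scale (adjusted p = 0.0384). Slc25a28, which encodes mitoferrin-2, an iron carrier of the inner mitochondrial membrane, went from 47.6, 45.1 and 48.2 to 34.3, 37.9 and 38.4 CPM and fell by 0.35 (adjusted p = 0.0494). In both genes all Arid3a-FLAG values lay below all LUC values, a separation in this direction shown by 16.5% of tested genes. The call of Pgrmc1 held without LUC 1 or 2 and was lost without LUC 3 (adjusted p = 0.0705) or Arid3a-FLAG 1 (0.131), 2 (0.151) or 3 (0.157). That of Slc25a28 held in 3 of 14 alternatives, of those with a library left out only without LUC 2 (0.0137), with an adjusted p up to 0.219. With every library in, it was lost with RLE factors (0.0550), no filter on low counts (0.0707), at least 5 CPM in 3 libraries (0.0571), limma-voom (0.0502) and the 20 most abundant genes left out (0.0626).

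Ferrochelatase itself carries an iron-sulphur cluster, and of 16 tested genes that assemble such clusters none passed in edgeR. The median was -0.16, with 12 below 0 and 2 at an unadjusted p under 0.05 (DESeq2 and limma-voom called 0 as well). Over all 13631 tested genes the median was -0.03, with 7454 below 0. Fdxr, the reductase that passes electrons to the ferredoxins, was nearest, at 44.1, 47.4 and 44.5 CPM in the controls and 36.01, 38.3 and 35.4 CPM under Arid3a-FLAG (-0.31, adjusted p = 0.0682, and 0.0488 without LUC 2).

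None of the 9 genes that supply glycine and succinyl-CoA, the substrates of the synthase, passed in edgeR, DESeq2 or limma-voom (median 0.04, 0 with an unadjusted p under 0.05). The smallest p was that of Suclg2, a subunit of succinyl-CoA synthetase, at -0.23 (adjusted p = 0.219). The 3 genes that turn haem into haem a or attach it to cytochrome c gave no call either, with 0 at an unadjusted p under 0.05 and 0 in DESeq2 and limma-voom. They lay between 0.08 and 0.15, and Cox10 stood at 0.15 (adjusted p = 0.445).

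Of 11 genes of haem breakdown and export, 8 were tested and none passed in edgeR (median -0.09, 2 with an unadjusted p under 0.05, 0 in DESeq2 and limma-voom). Flvcr1, a haem and choline transporter of the cell membrane, had the smallest p, with 19.9 ± 1.08 CPM in the controls, against 24.9 ± 1.33 CPM under Arid3a-FLAG (0.33, adjusted p = 0.0937). Without LUC 2 Flvcr1 passed (0.0263). It shares 809 exonic bases with the antisense gene A230020J21Rik.

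Among 14 tested regulators that sense haem or iron, 1 rose and 0 fell (median 0.14). Ireb2, which encodes the iron regulatory protein IRP2, an RNA-binding protein known to hold back translation of Alas2 when iron is short, went from 98.6, 94.0 and 98.6 to 125.9, 119.4 and 118.0 CPM. All Arid3a-FLAG libraries were above all LUC libraries, a separation in this direction shown by 16.6% of tested genes. The log2 rise of Ireb2 was 0.32 with an SE of 0.08 (adjusted p = 0.0412). The call was lost without LUC 1 (0.0809) or Arid3a-FLAG 1 (0.192), 2 (0.175) or 3 (0.118), and with upper quartile factors (0.0509). Of 9 erythroid transcription factors that act on haem genes, 1 rose and 0 fell (median 0.01). Tal1, a partner of GATA1, went from 314.4, 314.9 and 374.9 to 442.3, 432.0 and 434.1 CPM, again with the groups apart, and rose by 0.38 (adjusted p = 0.0444). Its call was lost without LUC 1 (0.114) or Arid3a-FLAG 1 (0.179), 2 (0.175) or 3 (0.135). Gata1, the factor named in the cells' genotype, had 264.2, 318.7 and 274.0 CPM in the controls, against 332.5, 320.5 and 324.4 CPM under Arid3a-FLAG. The groups lay apart, in that same direction, without a call (0.19, adjusted p = 0.249), and gene counts do not tell a full-length from a shortened form.

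**Figure D4:**
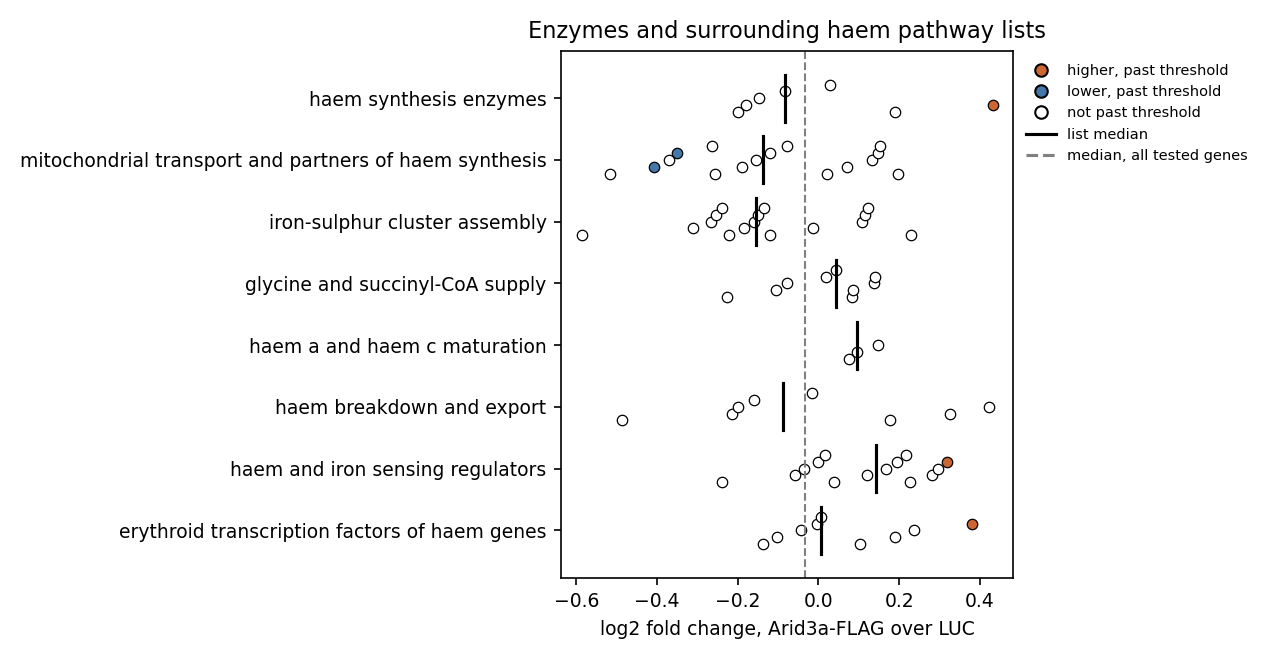
Log2 fold change of every tested gene in the haem synthesis list and 7 surrounding lists, with short black lines at list medians and a dashed line at the median of all tested genes (-0.03); vertical offsets within a row only separate points. Filled points passed the threshold: Fech, Ireb2 and Tal1 higher, Pgrmc1 and Slc25a28 lower.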

How the data were processed

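RNA of 6 samples was sequenced. The authors deposited raw counts of reads for each gene, which were used as they stand. Per the submitters' processing notes, the tools were fastp, HISAT2 2.0.5 and featureCounts, on mm10. Their settings, annotation release and use of strand are not stated. Columns were matched to samples by their descriptions. The table held 53802 entries; the 1 construct entry was left out of library sizes and tests. Symbols, positions and exon lengths came from GENCODE M21 (95 identifiers unmatched).

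The test was that of edgeR 4.0.16 under R 4.3.3: filterByExpr defaults, TMM factors, the quasi-likelihood F test with the group as the only term, two-sided, Benjamini-Hochberg over 13631 genes, threshold 0.05. Adjusted p-values come from it where no other tool is given. Standard errors are the size of the log2 fold change over the square root of F. CPM used TMM-scaled sizes of the filtered libraries. Alternatives used DESeq2 1.42.0, limma 3.58.1, other factors and filters, a replicate block and libraries left out. The script was tested on simulated data.

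The members and lists were chosen with earlier results of these data known. Named pathway genes were, per list, up to 2 per direction with the smallest p among those past the threshold, otherwise the 1 with the smallest p. For marker lists they were the 3 with the highest mean CPM, and for likeness the 5 nearest genes of at least 5 mean CPM, which could not be applied to Alas2. Other genes are marked where named.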

Additional observations from a re-analysis of the deposited data

How the results depend on the processing

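Every tested enzyme other than Uros and Ppox kept its direction under all 14 alternatives, and Alas1, Alad, Uros, Urod and Cpox passed the threshold in none of them. Fech stayed past the threshold in all 8 alternatives that used every library, with an adjusted p down to 0.00258, and in 2 of 6 that left a library out. With 1 library left out, the count of enzymes that rose ran from 0 to 1 and the count that fell from 0 to 1 (Ppox, without LUC 2). Reversed values were those of Uros, -0.0629 without LUC 3 and -0.136 without Arid3a-FLAG 1 (range with a library left out -0.136 to 0.133), and of Ppox, 0.0422 without LUC 1 and 0.00399 without LUC 3 (range -0.223 to 0.0422). The Alas2 to Alas1 difference ran from -0.363 to 0.611, with reversals at -0.363, -0.244 and -0.159.

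Over the whole table, 869 genes rose and 1076 fell with no filter on low counts and 771 rose in DESeq2. With 1 library left out, 115 to 1191 rose and 118 to 1095 fell, the highest counts without LUC 2 and the lowest without Arid3a-FLAG 1. Of mitochondrial carriers and partners, 1 fell with RLE factors, 1 with at least 5 CPM in 3 libraries, 1 in limma-voom, 1 with the 20 most abundant genes left out and 0 with the replicate block; 0 to 3 fell and 0 to 1 rose with a library left out. In the same fits, 0 to 2 iron-sulphur genes rose and 0 to 1 fell, 0 to 1 supply genes rose, 0 to 1 breakdown and export genes rose, 0 to 3 regulators rose and 0 to 2 erythroid factors rose. With no filter, 1 breakdown and export gene rose and 1 fell. No regulator passed with upper quartile factors (0). The causes were not tested.

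Replicate numbers did not pair the libraries: deviations of same-numbered libraries correlated at -0.103, -0.115 and 0.125 across genes. With the replicate block Fech stayed past the threshold, at 0.43 (adjusted p = 0.0345), while the calls of Pgrmc1 (adjusted p = 0.0525), Slc25a28 (0.0779), Ireb2 (0.0830) and Tal1 (0.0733) were lost, so that 0 regulators and 0 erythroid factors passed, and the exact sign-flip test of the Alas2 to Alas1 ratio gave a difference of 0.0695 (p = 1). Low counts limited what could be said of Alas2, with at most 8 in a library.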

Other observations

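Some genes of the surrounding lists that lie outside the naming rule are given here. They were chosen after their values were seen, and none of them passed the threshold. Klf1, an erythroid factor that acts on haem genes, stood at 15.3, 11.4 and 8.85 CPM in the controls, against 13.5, 7.55 and 12.1 CPM under Arid3a-FLAG (-0.10, adjusted p = 0.825), and the groups overlapped. The erythroid mitoferrin Slc25a37, which brings iron to ferrochelatase, had 102.1 CPM in LUC 2 and 150.1 and 149.8 CPM in the other controls, the same low position of LUC 2 as for Ppox and Cpox. Its log2 fold change was -0.19 (adjusted p = 0.422).

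Hmox1, the inducible oxygenase that opens the haem ring, had 109.9 CPM in LUC 3 against 37.96 and 51.5 CPM in the other controls and 41.7 to 53.2 CPM under Arid3a-FLAG (-0.49, adjusted p = 0.344). Alas1, Alad and Uros were each at their lowest in that same library, at 15.6, 28.1 and 8.42 CPM, and the other enzymes were not. A relation between Hmox1 and these enzymes was not tested.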
